A study of Mus musculus with 6 samples.

Results

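The BCL2 family decides whether the outer membrane of the mitochondria stays closed or opens and lets a cell die by apoptosis, and 10 of its genes were examined in cells sorted from the bones of mice given dexamethasone, a synthetic glucocorticoid. The members were named by symbol, with earlier results of these data known. They were 3 pro-survival genes (Bcl2, Bcl2l1 and Mcl1), 2 pore-forming effectors (Bax and Bak1) and 5 genes of the BH3-only class (Bcl2l11, Bbc3, Pmaip1, Bid and Bad). Of these 10 genes, 9 had a row among the 29616 genes of the deposited table, and Pmaip1 was not analysed here. The data were bulk RNA sequencing of 3 libraries from control mice and 3 libraries from dexamethasone-treated mice, all of the strain C57BL/6. Wild type mice, 8 weeks old at the start, received daily doses of 0.08 µg dexamethasone per g of body weight over 4 weeks, and saline is the control named beside them. By the study's methods, cells carrying Osteocalcin, a matrix protein of mature osteoblasts, were taken from bones freed of marrow, while the labels call the material bone cells. The labels call the 3 libraries of a group biological replicates and do not state whether a library came from 1 mouse or from several. The mice carried no transgene for this experiment as far as the sources used here say.

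In a healthy cell the pro-survival proteins BCL2, BCL-XL (from Bcl2l1) and MCL1 hold the effectors BAX and BAK in check. Stress signals raise or activate BH3-only proteins such as BIM (from Bcl2l11) and PUMA (from Bbc3), which occupy the pro-survival proteins and free the effectors to form pores. Cytochrome c then leaves the mitochondria and starts the caspase cascade. Glucocorticoids are known to kill lymphocytes through BIM and PUMA, and apoptosis of osteoblasts and osteocytes is a known feature of glucocorticoid-treated bone.

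The depth of the libraries was between 72596611 and 89910728 reads, and the member with the fewest reads, Bad, had 435 to 644 in a library. Of the cell markers, the collagen genes Col1a1 and Col1a2, which bone cells express strongly but which other connective tissue cells express too, were by far the most abundant. They made up nearly all of the summed level of 8 osteoblast markers, which was 1976430 to 2103562 normalized counts in control and 751472 to 845231 in dexamethasone libraries, and all 8 fell. Bglap, a gene of Osteocalcin, on which the cells were sorted, was low at 107 ± 12.9 (SD, n = 3) and 12.2 ± 2.80 (SD, n = 3) normalized counts. Bglap2, a further Osteocalcin gene of the marker list, was at 324 ± 21.0 (SD, n = 3) and 31.3 ± 2.17 (SD, n = 3). Alpl was at 321 ± 28.5 (SD, n = 3) and 57.7 ± 0.856 (SD, n = 3). Bglap, Bglap2 and Alpl were under the endothelial gene Vwf at 1825 ± 81.8 (SD, n = 3) and 3097 ± 290 (SD, n = 3). Other osteoblast markers were not. Runx2, at 15301 in control and 4541 in dexamethasone libraries, was above Vwf in both groups. Sp7, at 7655 and 2102, and Ibsp, at 2917 and 1213, were above Vwf in control only. Of 8 endothelial markers, 7 were in the table, with summed levels of 2171 to 2298 in control and 3267 to 3877 in dexamethasone libraries. Vwf made up most of this sum. Of the 5 tested, 3 rose, namely Vwf, Kdr (348 and 414) and Pecam1, which was low (15.7 and 26.3, limma adjusted p = 0.0419). The defining markers Cdh5 (means of 0.612 and 1.75) and Tie1 (0 and 1.89) were nearly absent in both groups and at 0 in some libraries. The 8 hematopoietic markers summed to 1107 to 1137 and 1145 to 1197, with 2 of the 5 tested higher and 3 lower. Behind this sum, Lyz2 fell from 996 to 351, whereas Itgb2, at 54.6 in control and 503 in dexamethasone libraries, and Cd53, at 15.7 and 283, rose, and the defining marker Ptprc was at 2.48 and 4.71. All 12 markers of proliferation rose, from summed levels of 44120 to 47342 to levels of 278759 to 292145. Their part in the results that follow was not tested. In bulk RNA, a smaller share of cells that express a gene and less RNA per cell cannot be told apart.

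The promoter letters of the genes that changed most, together with those of Bax, are given here because they are the sequence through which transcription factors could reach these genes. RefSeq windows from 250 bases before to 50 bases after a start site (assembly GRCm38.p6) were found for 21 of 26 family genes, with 30 windows in all. Of these, the 250 bases before the start are printed 5′ to 3′ on the strand of the gene, for windows in which GENCODE M21 has 0 exon bases. For Bbc3 and Bmf, which have further such windows, the one with a motif match is printed. Capitals mark matches to the motifs searched, on either strand.
Bcl2l1, chr2:152831729-152831978, minus strand, the farthest upstream of its 3 start sites: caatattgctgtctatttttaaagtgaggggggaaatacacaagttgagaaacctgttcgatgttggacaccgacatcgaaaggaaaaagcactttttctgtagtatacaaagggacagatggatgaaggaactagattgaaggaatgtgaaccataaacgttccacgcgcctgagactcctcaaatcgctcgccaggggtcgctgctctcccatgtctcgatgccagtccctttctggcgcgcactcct
Bax, chr7:45466899-45467148, minus strand: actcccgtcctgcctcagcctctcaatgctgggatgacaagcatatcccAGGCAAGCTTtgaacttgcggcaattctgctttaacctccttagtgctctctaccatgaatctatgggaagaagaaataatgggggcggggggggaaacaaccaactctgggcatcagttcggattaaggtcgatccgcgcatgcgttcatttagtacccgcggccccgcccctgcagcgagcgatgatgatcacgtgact
Bbc3, chr7:16310011-16310260, plus strand, the middle of its 3 start sites: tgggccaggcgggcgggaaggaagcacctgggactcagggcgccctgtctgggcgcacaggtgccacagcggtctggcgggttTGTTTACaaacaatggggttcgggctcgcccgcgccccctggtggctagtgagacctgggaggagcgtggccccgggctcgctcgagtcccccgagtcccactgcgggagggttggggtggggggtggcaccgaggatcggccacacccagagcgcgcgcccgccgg
Bmf, chr2:118544588-118544837, minus strand, the farthest downstream of its 3 start sites: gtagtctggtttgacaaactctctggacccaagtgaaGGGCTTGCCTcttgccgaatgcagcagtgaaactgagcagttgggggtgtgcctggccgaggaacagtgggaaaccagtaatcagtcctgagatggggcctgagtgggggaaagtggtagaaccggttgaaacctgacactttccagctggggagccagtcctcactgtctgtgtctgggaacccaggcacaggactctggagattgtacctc

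The printed window of Bbc3 holds the FOXO motif (letters GTAAACA) from -167 to -161, counted from the start site at 1. Of all 32851 promoter windows of the same length, 3.65% hold it. A further FOXO match lay from -227 to -221 in a window of Bcl2l11. The printed windows of Bax (-201 to -192) and Bmf (-213 to -204) hold the 10-letter p53 motif of a single decamer, found in 8.36% of all windows. The other windows of Bbc3 and of Bmf hold no match to the motifs searched. A window at the middle start site of Bcl2l1, not printed, holds the E2F motif (letters TTTNNCGC, 5.17% of all windows) from -145 to -138. The full glucocorticoid response element, present in 0.475% of all windows, was not among the matches in the family. The shorter glucocorticoid receptor motif (letters AGAACA, 19% of all windows) was matched in Bok and Bcl2l14, and the CHOP-ATF motif (letters TGATGCAA, 0.895%) in Bcl2a1a, Bcl2a1b and Bcl2a1d. The full element can overlap the shorter motif, and no printed match overlaps another. A match is a description of letters, and distant enhancers were not searched.

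The 9 measured members did not move together: 1 pro-survival gene rose strongly, 1 rose modestly, and 5 genes from all 3 classes fell. A gene was said to pass when its limma adjusted p-value was under 0.05, and was called differentially expressed when its log2 fold change, written as log2 change from here on, was also at least 1 in either direction, after the cut-offs of the study's methods. All 9 members were tested, since each had a mean of at least 10 normalized counts. Of these 9, 7 passed, 2 higher and 5 lower, whereas 72.5% of all 17442 genes tested passed, 37.2% higher and 35.2% lower. Differentially expressed were 2 of the 9, with 1 higher (Bcl2l1) and 1 lower (Bbc3), against 22.3% of all genes tested (11.7% higher and 10.6% lower). The control and dexamethasone libraries did not overlap for 7 of the 9 members and for 74.7% of all genes. Thus the shares of members called lay near the background in this comparison. The median log2 change of the members was -0.20 and that of all genes 0.00071.

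**Figure D1:**
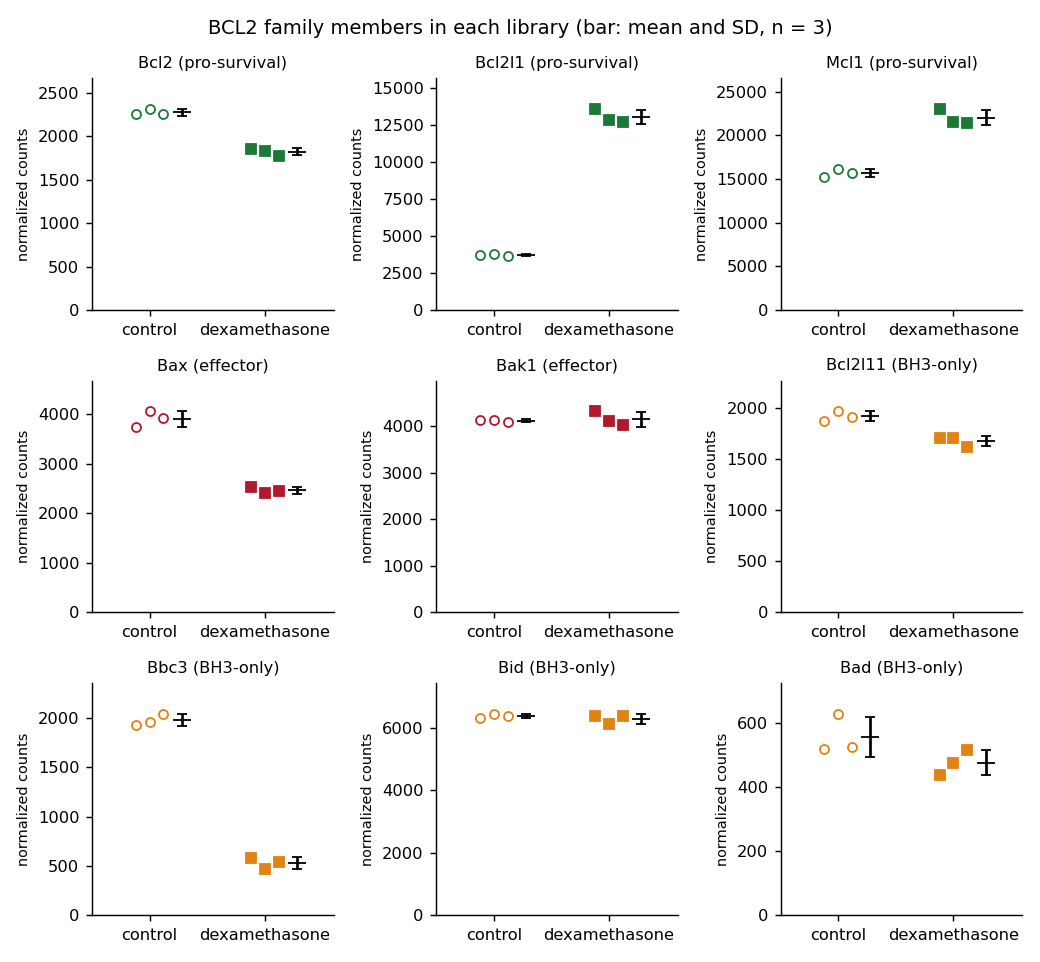
Normalized counts of the 9 measured members in the 3 control (open circles) and 3 dexamethasone libraries (filled squares), with the mean and SD (n = 3) as a black line and bar beside each group and each vertical axis starting at 0. The groups stand apart for 7 genes, widest for Bcl2l1 (3659 to 3805 against 12706 to 13590) and Bbc3 (1929 to 2048 against 464 to 580), and they overlap for Bak1 and Bid.

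Among the pro-survival members, Bcl2l1 (ENSMUSG00000007659) encodes BCL-XL, a mitochondrial guardian that binds both effectors and most BH3-only proteins. Its normalized counts were 3742, 3805 and 3659 in control replicates 1 to 3 and 13590, 12826 and 12706 in dexamethasone replicates 1 to 3. Every dexamethasone library lay far above every control library, and Bcl2l1 rose 3.49-fold from 3736 ± 73.3 (SD, n = 3) to 13041 ± 480 (SD, n = 3). The log2 change was 1.80 (SE 0.0368, limma adjusted p = 2.92e-23), and 8.66% of all genes tested had a larger change in either direction. Across the 16 alternative settings it was 1.63 to 1.82, past the cut-off in all 16. A count per gene does not separate the long splice form, BCL-XL, from the short form, BCL-XS, which promotes death.

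Mcl1 (ENSMUSG00000038612), whose short-lived protein restrains BAK and BIM, was the most abundant member. Its normalized counts were 15282, 16141 and 15725 in control and 23067, 21578 and 21473 in dexamethasone libraries. Again the groups did not overlap, and Mcl1 rose 1.40-fold, a log2 change of 0.49 (SE 0.0372, limma adjusted p = 1.63e-11) that lay under the cut-off of 1. The change was 0.37 with all libraries scaled to the same total and 0.28 after quantile normalization. Bcl2 (ENSMUSG00000057329), the founding member of the family, went the other way. Its values of 2253, 2319 and 2255 in control and 1856, 1836 and 1777 in dexamethasone libraries did not overlap, and it fell by 0.32 on the log2 scale (SE 0.0431, limma adjusted p = 3.8e-07). Thus the 3 pro-survival genes differed in direction as well as in size.

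Of the effectors, Bax fell and Bak1 did not pass the test. Bax (ENSMUSG00000003873) encodes the effector that waits in the cytosol and moves to mitochondria when activated. Its normalized counts were 3742, 4066 and 3925 in control and 2542, 2402 and 2460 in dexamethasone libraries, and the groups stood apart. Bax fell 1.58-fold from 3911 ± 162 (SD, n = 3) to 2468 ± 70.2 (SD, n = 3), a log2 change of -0.66 (SE 0.0418, limma adjusted p = 3.74e-13). In the GENCODE M21 annotation another gene on the same strand overlaps 12.2% of the exon bases of Bax, and 93.2% of its 75-base windows are found in no other gene. Bak1 (ENSMUSG00000057789), the effector that sits permanently in the mitochondrial membrane, had 4138, 4145 and 4100 normalized counts in control and 4331, 4113 and 4022 in dexamethasone libraries. These values overlapped, and the log2 difference was 0.0089 with a 95% interval of -0.0707 to 0.0885 (limma adjusted p = 0.846). With all libraries scaled to the same total, a setting that moved the median of all genes to -0.11, the difference of Bak1 was -0.11 (limma adjusted p = 0.00727), so that its call depended on the scaling.

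The BH3-only members fell or did not pass. Bbc3 (ENSMUSG00000002083) encodes PUMA, a p53 and FOXO target that binds every pro-survival protein. Its normalized counts were 1929, 1963 and 2048 in control and 580, 464 and 537 in dexamethasone libraries. Each dexamethasone library lay far under each control library, and Bbc3 fell 3.76-fold from 1980 ± 61.1 (SD, n = 3) to 527 ± 58.5 (SD, n = 3). The log2 change was -1.91 (SE 0.0659, limma adjusted p = 1.53e-18), it ranged from -2.03 to -1.82 over the 16 alternatives, and 7.74% of all genes had a larger change in either direction.

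Bcl2l11 (ENSMUSG00000027381) encodes BIM, the BH3-only protein best known from glucocorticoid-killed lymphocytes. It had 1875, 1967 and 1909 normalized counts in control and 1705, 1702 and 1616 in dexamethasone libraries, and thus fell rather than rose. The groups did not overlap, and the log2 change was -0.20 (SE 0.0455, limma adjusted p = 0.000491), with -0.31 at the same total and -0.34 after quantile normalization. Bid (ENSMUSG00000004446), which carries the signal of death receptors to mitochondria once caspase-8 has cut its protein, had 6310, 6454 and 6369 against 6371, 6111 and 6381. Its groups overlapped, and the log2 difference was -0.02 with a 95% interval of -0.0941 to 0.0526 (limma adjusted p = 0.611). At the same total it was -0.13 (limma adjusted p = 0.000215), and after quantile normalization -0.23.

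Bad (ENSMUSG00000024959), a BH3-only gene whose protein is silenced by survival kinases such as AKT, was the least abundant member, with 518, 630 and 526 normalized counts in control and 439, 474 and 517 in dexamethasone libraries. The highest dexamethasone value and the lowest control value nearly met, and control replicate 2 lay highest. The log2 change of -0.22 (95% interval -0.39 to -0.05) passed with a limma adjusted p of 0.0182. It was -0.34 at the same total, -0.13 (limma adjusted p = 0.168) without control replicate 2 and -0.17 (limma adjusted p = 0.0855) without dexamethasone replicate 1, and with limma without a trend the adjusted p was 0.104, so that the call for Bad rested on these choices. Of the exon bases of Bak1, 25.5% also lie in a gene read from the other strand, as do 20.5% in Bad, 17.7% in Bid and 6.09% in Bcl2. The library kit marks strand, but whether the count used it is not given in the sources used here. Bcl2l1, Mcl1, Bcl2l11 and Bbc3 are overlapped by no other gene.

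**Figure D2:**
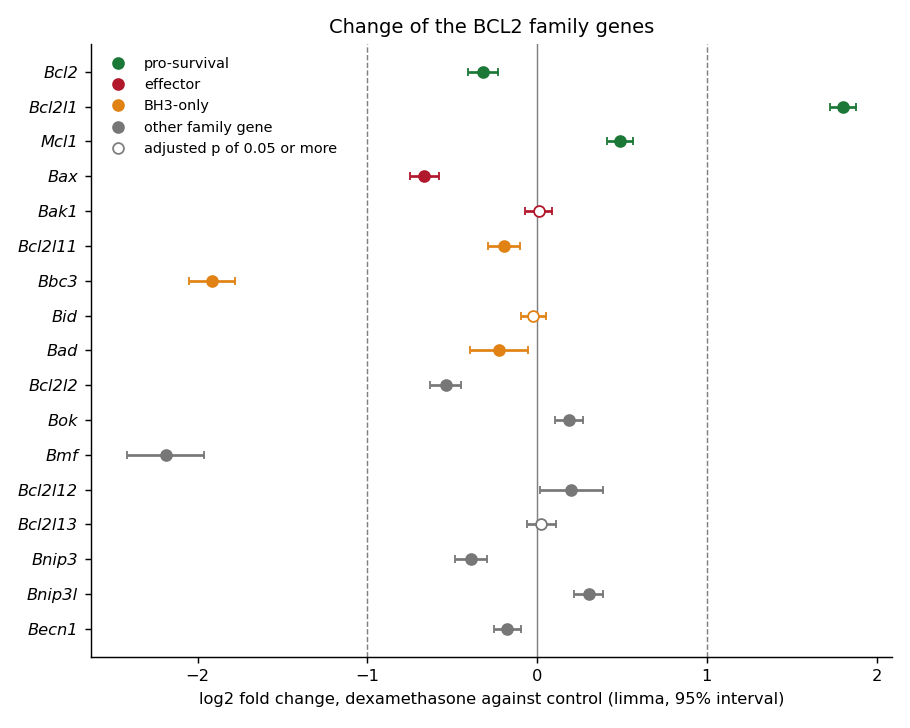
Log2 change of dexamethasone against control with its 95% interval from limma for the 9 measured members and 8 further genes of the family, where colors mark the class, open circles mark an adjusted p of 0.05 or more, and dashed lines mark the cut-off of 1. Bcl2l1 at 1.80 lies beyond the upper line, Bbc3 at -1.91 and Bmf at -2.19 lie beyond the lower line, and the remaining genes lie between them.

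The other genes of the family repeated the mixture. This list named 16 genes, of which 14 were in the table. The mean for testing was reached by 8, with 3 higher, 4 lower and 1 not passing. The median log2 change of these 8 was -0.07. Of all genes tested, 37.2% were higher, 35.2% lower and 22.3% differentially expressed. Bmf, a BH3-only gene whose protein is tethered to the cytoskeleton and released by loss of attachment, had the largest change among the family genes tested. Its normalized counts were 465, 508 and 450 in control and 108, 89.4 and 114 in dexamethasone libraries. Bmf fell 4.57-fold, with no overlap between the groups and a log2 change of -2.19 (SE 0.11, limma adjusted p = 3.46e-15), and it was the only one of these 8 genes to be differentially expressed.

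Bcl2l2 encodes BCL-W, a further pro-survival protein, and went down like Bcl2. It fell from 4431 ± 143 (SD, n = 3) to 3055 ± 190 (SD, n = 3) in normalized counts, a log2 change of -0.54 (limma adjusted p = 5.84e-11), while 13.3% of its exon bases also lie in a neighbor read from the same strand. Bok, an effector-like gene, rose from 4322 ± 107 (SD, n = 3) to 4934 ± 208 (SD, n = 3), a log2 change of 0.19 (limma adjusted p = 0.000137) that shrank to 0.013 (limma adjusted p = 0.709) after quantile normalization. The paired mitophagy receptors moved apart, since Bnip3 fell by 0.39 and Bnip3l rose by 0.30 on the log2 scale (limma adjusted p = 5.37e-08 and 4.1e-07), and Bnip3l was at 0.19 at the same total and 0.12 after quantile normalization. Becn1, an autophagy gene whose protein BCL2 binds, fell by 0.17 (limma adjusted p = 0.000208) and was at -0.34 after quantile normalization, with 43.9% of its exon bases also in a gene of the other strand. Bcl2l12 passed narrowly at 0.20 (limma adjusted p = 0.0468) and lost the call without any of control replicates 1, 2 or 3 or dexamethasone replicate 1, where the adjusted p was 0.0505 to 0.267. Bcl2l13 differed by 0.03 (95% interval -0.06 to 0.11, limma adjusted p = 0.592).

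The 6 remaining genes of this list lay under the mean for testing. Bcl2a1d, a pro-survival gene of blood cells, had 0, 0 and 1 reads in control and 20, 14 and 19 reads in dexamethasone libraries. The ratio of the pooled reads, corrected for the pooled size factors, was 60.9, with an exact 95% interval of 10.5 to 2452 that covers counting error only. Just 32.4% of its 75-base windows are found in no other gene, because near-identical copies exist, so the count is uncertain. The blood cell genes Cd53 (15.7 to 283) and Itgb2 (54.6 to 503) also rose. However, 3 of the 5 tested hematopoietic markers fell, among them Lyz2 (996 to 351). A part of blood cells in the count of Bcl2a1d was not tested. Bcl2l10, Bik, Hrk, Bcl2l14 and Bcl2l15 had between 0 and 9 reads in each library and were not tested.

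Ratios within a library do not depend on how the libraries were scaled, and they restate the counts above for chosen pairs of genes. The ratio of Bax to Bcl2, an often used index of readiness to die, was 1.66, 1.75 and 1.74 in control and 1.37, 1.31 and 1.38 in dexamethasone libraries. It was thus lower in every dexamethasone library, by 0.34 on the log2 scale, even though both genes fell. The ratio of Bcl2l11 to Bcl2l1 was 0.513 ± 0.0108 (SD, n = 3) in control and 0.128 ± 0.00377 (SD, n = 3) in dexamethasone libraries, so that BIM transcripts were outnumbered further. The ratio of Bbc3 to Mcl1 was 0.126 ± 0.00431 (SD, n = 3) and 0.0239 ± 0.00206 (SD, n = 3), a difference of -2.40.

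The ratio of Bcl2l11 to Mcl1 was lower with dexamethasone by 0.68 and that of Bax to Bak1 by 0.67 on the log2 scale. Only the ratio of Bcl2l11 to Bcl2 among the 7 ratios computed was higher with dexamethasone, at 0.918 ± 0.00864 (SD, n = 3) against 0.842 ± 0.00880 (SD, n = 3). The ratio of the pro-survival transcripts Mcl1 to Bcl2l1 was 4.21 ± 0.111 (SD, n = 3) in control and 1.69 ± 0.00750 (SD, n = 3) in dexamethasone libraries. None of the 7 ratios overlapped between the groups, and 74.7% of all genes tested singly did not overlap either. No test was run on the ratios, whose genes were tested singly above, and an exact permutation test of 3 libraries against 3 cannot give a two-sided p under 0.1. They describe transcripts, not the amounts or activity of proteins.

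**Figure D3:**
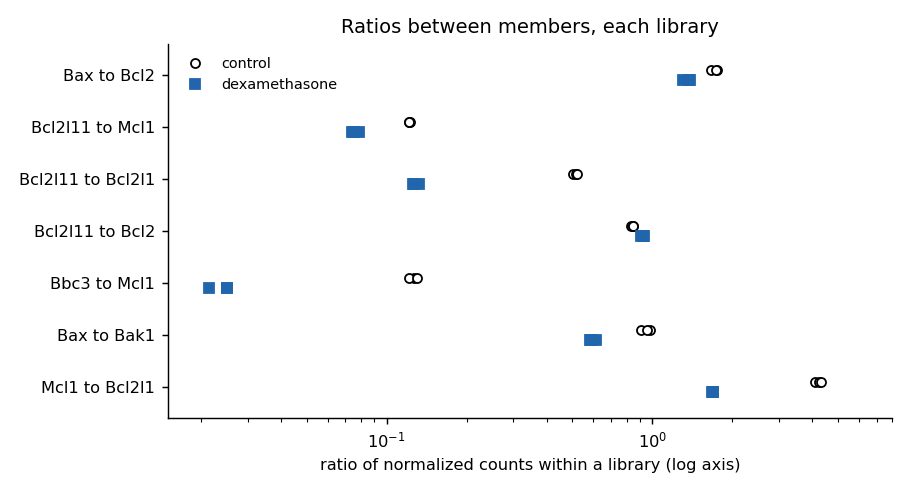
The 7 ratios of normalized counts in each library on a log axis, with control libraries as open circles and dexamethasone libraries as filled squares. The groups do not overlap for any ratio, and the dexamethasone squares lie to the left for 6 of the 7, farthest for Bbc3 to Mcl1 (0.126 against 0.0239).

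To compare levels between genes, normalized counts were divided by the merged exon length in GENCODE M21, which gives normalized counts per kilobase. In control libraries the order was Mcl1 (4598), Bax (2481), Bid (1797), Bak1 (1715), Bbc3 (932), Bcl2l1 (815), Bcl2 (249), Bcl2l11 (239) and Bad (218). The libraries of neighbors in that order did not overlap except for Bcl2l11 and Bad. In dexamethasone libraries Bcl2l1 came next at 2844 per kilobase, behind Mcl1 at 6448, and Bax, at 1566, stood behind Bid (1771) and Bak1 (1726), whose libraries overlapped. Bbc3, at 248, was close to Bcl2l11 (209), Bcl2 (199) and Bad (186), and the last 3 overlapped as neighbors. Bcl2 has a long annotated transcript, so its place depends on the length used.

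On this scale the pro-survival members held 43.4% ± 0.115 (SD, n = 3) of the 9 members' total in control and 62.4% ± 0.470 (SD, n = 3) in dexamethasone libraries. The effectors held 32.2% ± 0.0682 (SD, n = 3) and 21.7% ± 0.0535 (SD, n = 3), and the BH3-only members 24.4% ± 0.166 (SD, n = 3) and 15.9% ± 0.476 (SD, n = 3). The shift was made up mainly by Bcl2l1, with 6.25% and 18.7%, Mcl1, with 35.3% and 42.4%, Bax, with 19.0% and 10.3%, and Bbc3, with 7.15% and 1.63%. Bid and Bak1, whose levels did not pass the test, went from 13.8% to 11.7% and from 13.2% to 11.4% because the total rose from 13043 to 15198 per kilobase. The shares follow from the same counts as the single genes and are given as a description. Further family genes, such as the pro-survival Bcl2l2 and the BH3-only Bmf, are not counted in them.

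**Figure D4:**
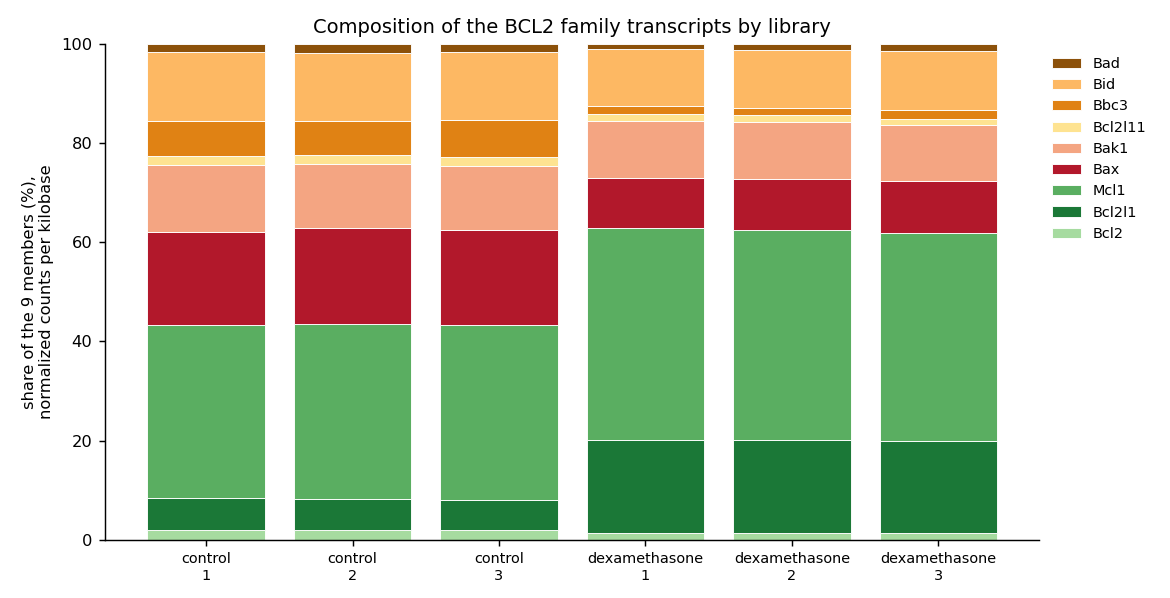
Share of each of the 9 measured members in their total of normalized counts per kilobase, as stacked bars for the 3 control and 3 dexamethasone libraries, with pro-survival genes in green at the bottom, effectors in red and BH3-only genes in orange and brown. The green part fills 43.4% of the control bars on average and 62.4% of the dexamethasone bars, and the 3 bars of a group look alike.

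The genes around the family were described by lists of 82 genes, the other family genes included, of which 80 were in the table and 70 were tested. Of these, 35 rose, 24 fell and 11 did not pass, so that 84.3% passed against 72.5% of all genes tested. Differentially expressed were 5 higher and 6 lower genes, 15.7% against 22.3% of all genes. The split depended on the scaling, with 29 higher and 32 lower at the same total, and 27 and 30 after quantile normalization. The list of apoptosome and caspase genes holds both initiators of the cascade and its later steps. Of 12 tested, 8 (66.7%) rose, where 72.5% of all genes passed and 37.2% were higher, and 4 did not pass, with a median log2 change of 0.57. Casp8, the initiator caspase of death receptors and the protease that cuts BID, rose from 2082 ± 62.3 (SD, n = 3) to 4952 ± 107 (SD, n = 3) in normalized counts, a log2 change of 1.25 (limma adjusted p = 3.03e-19). Cycs, which encodes cytochrome c and had the highest mean of the list, rose by 0.70, Casp9 by 0.84 and Casp2 by 0.96 on the log2 scale, whereas Apaf1, the scaffold of the apoptosome, differed by 0.01 (limma adjusted p = 0.777).

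Of the inhibitor of apoptosis proteins, XIAP is the one best known to block caspases directly. Among 8 tested genes of these proteins and their antagonists, 4 rose and 3 fell, against 37.2% higher and 35.2% lower of all genes. Birc5, which encodes survivin, a protein of dividing cells that acts in mitosis, rose from 1252 ± 51.2 (SD, n = 3) to 7063 ± 122 (SD, n = 3), a log2 change of 2.50 (limma adjusted p = 4.51e-25). It moved with the 12 proliferation markers, all of which rose. Xiap, the most direct caspase inhibitor, rose by 0.40 on the log2 scale (0.22 after quantile normalization), while Birc2 and Birc3 fell by 0.50 and 0.48. Birc6, the most abundant, differed by 0.11 (limma adjusted p = 0.00831) and by -0.0024 (limma adjusted p = 0.943) at the same total. Septin4, which encodes the XIAP antagonist ARTS, fell by 1.56 (limma adjusted p = 0.000123) at low counts of 41.9 ± 17.0 (SD, n = 3) and 12.9 ± 2.32 (SD, n = 3).

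In the death receptor list, 4 of 9 tested genes rose and 2 fell, where 37.2% of all genes were higher and 35.2% lower. Fas, the receptor of Fas ligand, had 2178, 2280 and 2091 normalized counts in control and 429, 407 and 436 in dexamethasone libraries. It fell 5.15-fold, a log2 change of -2.36 (limma adjusted p = 8.07e-22). Cflar, which encodes FLIP, the decoy that keeps caspase-8 inactive, rose 2.78-fold from 6590 ± 97.5 (SD, n = 3) to 18313 ± 317 (SD, n = 3), a log2 change of 1.47 (limma adjusted p = 3.72e-22). Fas and Cflar thus moved in opposite directions, while Casp8, whose protein FLIP keeps inactive, rose. Tnfrsf1a, the most abundant gene of the list, differed by 0.06 (limma adjusted p = 0.185) and by -0.16 (limma adjusted p = 9.92e-06) after quantile normalization.

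Of 10 tested genes of the p53 list, 8 fell and 2 rose, where 35.2% of all genes were lower and 37.2% higher. Trp53 itself rose by 0.66 on the log2 scale (limma adjusted p = 5.29e-15) and the second gene to rise was Mdm2, which lost its call at the same total and after quantile normalization. Trp63, a relative of p53, fell from 1058 ± 106 (SD, n = 3) to 80.5 ± 11.6 (SD, n = 3), a log2 change of -3.70 (limma adjusted p = 2.94e-20). Among known p53 targets, Trp53inp1 fell by 1.56, Sesn2 by 0.89 and the most abundant, Ccng1, by 0.62 (limma adjusted p = 3.56e-22, 4.57e-17 and 4.35e-13). Aen, Zmat3 and Ei24 of the same list changed less, at -0.22, -0.16 and -0.15, and Mdm2, a p53 target as well, was at 0.17. Bax and Bbc3, which are p53 targets too, also fell, as described above. A part of p53 in these changes was not tested.

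In the list of transcription factors known to act on BH3-only genes, which also holds Trib3, a partner of such a factor, 3 of 8 genes rose and 4 fell. The shares of all genes were 37.2% higher and 35.2% lower. Ddit3, which encodes the stress factor CHOP, fell from 3697 ± 123 (SD, n = 3) to 1443 ± 30.2 (SD, n = 3), a log2 change of -1.36 (limma adjusted p = 2.46e-19). Its partner Trib3 fell by 0.95 and Foxo3 by 0.35, while Atf4, the most abundant, rose by 0.23. After quantile normalization the values were -0.56 for Foxo3 and 0.065 for Atf4. E2f1, a cell cycle factor, rose by 1.66 (limma adjusted p = 7.42e-22) beside the proliferation markers. Tsc22d3, which encodes the glucocorticoid-induced leucine zipper, rose from 5531 ± 167 (SD, n = 3) to 17389 ± 226 (SD, n = 3), a log2 change of 1.65 (limma adjusted p = 6.7e-23), and Nr3c1, the glucocorticoid receptor, fell by 0.92.

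Regulators of the BCL2 proteins themselves stayed under the cut-off. Of 15 kinases, ubiquitin ligases and binding partners, 11 rose, 3 fell and 0 were differentially expressed by limma, edgeR or DESeq2. Among all genes tested with limma, 37.2% were higher, 35.2% lower and 22.3% differentially expressed. Pim1, a kinase that phosphorylates BAD, rose by 0.99 on the log2 scale (limma adjusted p = 1.52e-11), just under the cut-off, and came to lie past it when control replicate 2, control replicate 3 or dexamethasone replicate 2 was left out. Huwe1, a ligase that marks MCL1 for breakdown and the most abundant of the list, rose by 0.21 (0.10 at the same total), and Marchf5, a mitochondrial ligase, fell by 0.56. The BAK-holding channel gene Vdac2 rose by 0.39, and Dynll2, whose product tethers BMF to the cytoskeleton, rose by 0.27. After quantile normalization they were at 0.18 and 0.096.

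**Figure D5:**
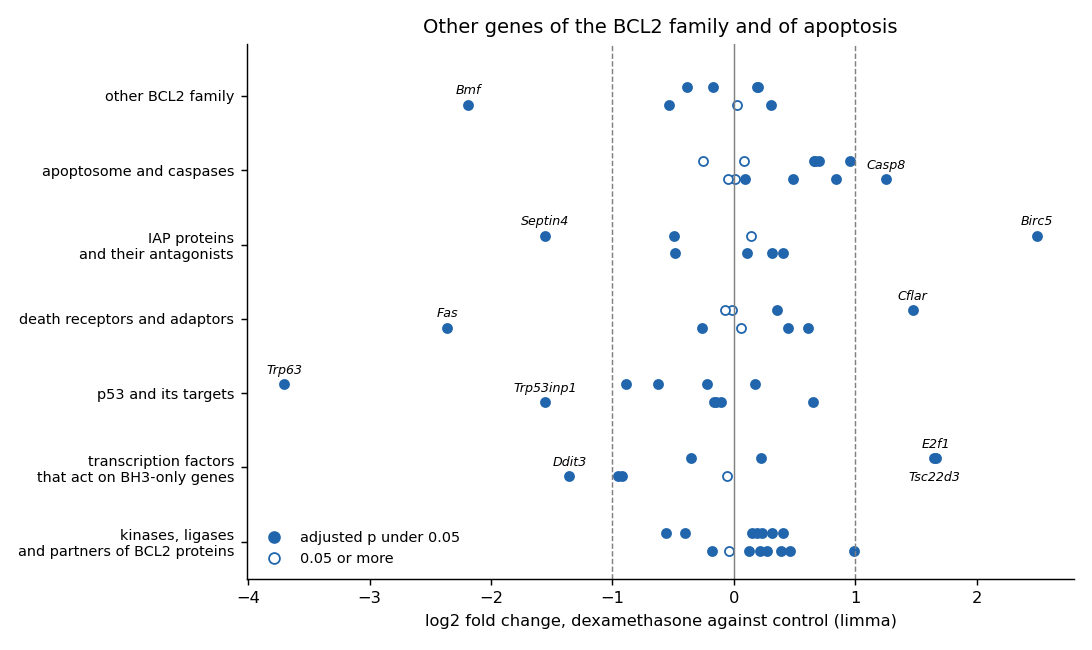
Log2 change of every tested gene of the 7 lists around the BCL2 family, with filled points for a limma adjusted p under 0.05, open points for 0.05 or more, dashed lines at the cut-off of 1, vertical position within a list without meaning, and names on the 11 differentially expressed genes. The caspase row lies mostly right of 0, with a median of 0.57, and the p53 row mostly left of it, with a median of -0.19.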

How the data were processed

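Bone cells, sorted for Osteocalcin by the study's account, of control and dexamethasone-treated mice were sequenced (3 libraries each) with a stranded mRNA kit. The authors aligned and counted reads per gene with STAR 2.7.10a and deposited these counts divided by a DESeq2 1.36.0 size factor per library, a normalized count that is a signal unit. The submitters' processing notes name GRCm39; which gene annotation served and how strand was treated in counting is not given in the sources used here. Every value was a whole multiple of 1 read (100% within a tolerance of 1e-06), so reads were recovered.

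Symbols (28087 of 29616 genes; 2 listed genes through an older symbol), lengths and overlaps came from GENCODE M21. Genes with a mean of at least 10 were tested with limma 3.58.1 (R 4.3.3) on log2(normalized count + 1), with an intensity trend and Benjamini-Hochberg adjustment. The added 1 makes fold changes of low genes smaller. The scripts were tested on simulated data. The alternatives, 16 in all, included count models on those reads (edgeR 4.0.16, DESeq2 1.42.0). Pooled over genes, replicates differed by more than sampling noise, at chi-square values of 3.27 to 26.1 per degree of freedom. This was not computed for single members, and some varied little. Bak1 had an SD of 0.58% of its mean in control libraries, at 4236 to 4666 reads. The p-values measure only the spread between these libraries. Named genes were the members, the tested genes of the other family list and, of each other list, the gene with the highest mean and up to 4 differentially expressed ones whose mean was 100 or more; further genes were named after their values were seen. Members and lists were chosen with earlier results of these data known.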

Additional observations from a re-analysis of the deposited data

How the results depend on the processing

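Across the 16 alternatives the number of members passing was 6 to 9 and that of members differentially expressed was 2 in each. It was 9 at the same total and after quantile normalization, where Bak1 and Bid were called lower, and 6 where Bad lost its call. The pathway genes passing numbered 56 to 61. With a mean of at least 100, 2170 genes were differentially expressed (1350 higher, 820 lower) in place of 3894, since fewer genes were tested. At the same total 45.1% of the differentially expressed genes were higher, with a mean of at least 100 62.2%, against 52.3%. The median of all genes moved to -0.11 at the same total.

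Of the named genes, 4 changed direction under some setting. Bak1 had a log2 fold change of -0.11 at the same total, -0.16 after quantile normalization, -0.016 with edgeR and -0.021 to 0.032 with 1 library left out. Bcl2l13 was at -0.088, -0.18, -6.5e-05 and -0.015 to 0.061 in the same order, Tnfrsf1a at -0.059 and -0.16 under the first and the second, and Birc6 at -0.0024 at the same total. The cause was not tested. Bcl2l12 lost its call in 10 alternatives.

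Replicate numbers did not pair the libraries, since same-numbered deviations correlated at -0.0999, -0.105 and -0.0199. With a replicate block 7 members passed and 2 were differentially expressed, as were 11 pathway genes and 3897 genes in all; Bcl2l12 and Birc6 lost their calls (limma adjusted p = 0.0612 and 0.0631). Depth limits statements on Bcl2a1d and the 5 other family genes with few reads.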
